A study of Homo sapiens with 10 samples.

Results

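The amino acid stress response genes are 10 human genes whose transcription rises when cells run short of amino acids: ATF4, DDIT3, DDIT4, ASNS, SESN2, TRIB3, CHAC1, SLC7A5, SLC7A11 and ASS1. They are 10 of 20098 protein-coding genes, chromosome Y left out. The pathway was chosen by the widths of ZMYND8 ChIP-seq peaks, because very wide FLAG-ZMYND8 peaks lie at DDIT4 and ASS1 and a wide peak of both ZMYND8 lists lies at SLC7A5. The widths at these 3 genes are therefore a description and no test was made of them. For each gene, peaks were counted, placed and measured within 3 kb of the TSS, in the gene body and within 50 kb.

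When amino acids are scarce, uncharged tRNA activates the kinase GCN2, which phosphorylates the translation factor eIF2. General translation falls, but the mRNA of the transcription factor ATF4 is translated more. ATF4 binds C/EBP-ATF response elements (CAREs) as a dimer with a C/EBP protein and activates genes for amino acid import, amino acid synthesis and growth arrest. ZMYND8 is a chromatin reader whose PHD, bromodomain and PWWP modules bind histone tails and DNA.

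The series holds 10 ChIP-seq samples of HEK293, a human embryonic kidney cell line. ZMYND8, H3K14ac and H3K27ac were each precipitated in 2 samples, with 1 input, from cells that the labels describe as carrying 3xFLAG-ZMYND8 or its N228F mutant without saying which. FLAG-ZMYND8 was precipitated in 2 samples, with 1 input of its own, from cells in which 10 nM doxycycline induced 3xFLAG-ZMYND8. All chromatin was fixed with formaldehyde and digested with micrococcal nuclease. The ZMYND8 antibody can bind the cells' own protein and the tagged one, whereas anti-FLAG binds only the tagged one, which is present in addition to the cells' own. No label names amino acid starvation or another stress. The files hold peak positions and no expression, so neither the cell type nor the activity of the response could be checked in them.

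The deposited data are 1 list of 15086 ZMYND8 peaks and 1 list of 63690 FLAG-ZMYND8 peaks in hg19 coordinates. Neither list names replicates or gives read counts, so depth is unknown, no spread between replicates can be given and no test between the lists was possible. The lists also differ in how closely peaks may lie. The smallest gap between neighbouring peaks is 849 bases in the ZMYND8 list and 165 bases in the FLAG-ZMYND8 list, where 7907 gaps are under 500 bases. Peaks closer together than 849 bases thus occur in the FLAG-ZMYND8 list only, and numbers and widths of peaks were compared within a list and not between lists. Widths range from 151 to 10710 bp for ZMYND8 and from 167 to 5751 bp for FLAG-ZMYND8, and in both lists the median is the minimum. The score is 1 in each row, so width served for ranking.

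Sequences with matches to the core letters of the CARE are shown first, so that the peaks can be placed against these matches. All are from GRCh37, the same build as hg19, in the direction of the gene, with matches to the searched letters in capitals. The core searched was TGATGNAA on either strand, so that its reverse complement TTNCATCA marks a match on the opposite strand. In DDIT4 (chr10:74032503-74032748, plus strand) 4 matches lie upstream of the gene, within the lncRNA ENSG00000289506 on the opposite strand, and under a FLAG-ZMYND8 peak. In SLC7A5 (chr16:87902323-87902473, minus strand) 1 match and the E-box CACGTG lie in an intron under a peak of both lists. In SLC7A11 (chr4:139163563-139163613, minus strand) 2 matches lie upstream of the gene and outside any peak. ASS1 (chr9:133320198-133320347, plus strand) had no match within 3 kb, and the stretch just upstream of its TSS is shown for its E-box and its GC box GGGCGG.
DDIT4: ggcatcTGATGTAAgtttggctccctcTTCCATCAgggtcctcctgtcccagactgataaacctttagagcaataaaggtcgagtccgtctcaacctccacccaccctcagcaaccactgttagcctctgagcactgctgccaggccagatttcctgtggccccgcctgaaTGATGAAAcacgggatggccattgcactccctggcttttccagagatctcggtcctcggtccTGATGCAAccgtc
SLC7A5: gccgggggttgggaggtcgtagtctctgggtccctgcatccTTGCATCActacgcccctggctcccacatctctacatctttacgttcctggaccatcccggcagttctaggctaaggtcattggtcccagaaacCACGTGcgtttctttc
SLC7A11: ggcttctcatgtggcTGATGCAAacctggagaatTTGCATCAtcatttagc
ASS1: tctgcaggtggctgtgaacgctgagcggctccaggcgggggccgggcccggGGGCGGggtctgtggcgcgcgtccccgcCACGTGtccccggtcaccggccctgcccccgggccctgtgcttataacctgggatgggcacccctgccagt

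A further 5 matches are shown with 30 bases each, the first 4 because they lie nearest to a start that transcripts of the gene use and the last because all its copies lie under a peak. They are from ASNS (chr7:97501770-97501799, minus strand), DDIT3 (chr12:57914585-57914614, minus strand), CHAC1 (chr15:41245449-41245478, plus strand), SESN2 (chr1:28585722-28585751, plus strand) and TRIB3 (chr20:361525-361554, plus strand). In TRIB3 the printed 30 bases occur 3 times at even spacing, with the matches 132, 165 and 198 bases downstream of the canonical transcript start.
ASNS: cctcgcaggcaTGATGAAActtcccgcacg
DDIT3: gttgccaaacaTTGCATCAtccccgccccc
CHAC1: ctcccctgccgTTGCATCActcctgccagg
SESN2: gtgaagtccctTTTCATCAcgcaaccctaa
TRIB3: ttagctccggtTTGCATCAcccggaccggg

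Peaks were assigned to a TSS by their midpoint, which had to fall no more than 3 kb from the 5′ end of the gene record. All 10 genes had a FLAG-ZMYND8 peak at the TSS, against 58.1% of the protein-coding genes. A ZMYND8 peak was found at 5 of them, ASNS, SESN2, TRIB3, SLC7A5 and ASS1, against 34.1%. The other 5, ATF4, DDIT3, DDIT4, CHAC1 and SLC7A11, had FLAG-ZMYND8 peaks only, a pattern of 28.7% of genes. Peaks of both lists overlapped at ASNS, TRIB3, SLC7A5 and ASS1, 4 genes of 10 against 20.3%. DDIT4, SLC7A5 and ASS1 guided the choice of the pathway through peaks at their starts, SLC7A5 through this very overlap. Nothing is therefore read from any of the shares in this paragraph. At SESN2 both lists had a peak but the peaks did not overlap.

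**Figure D1:**
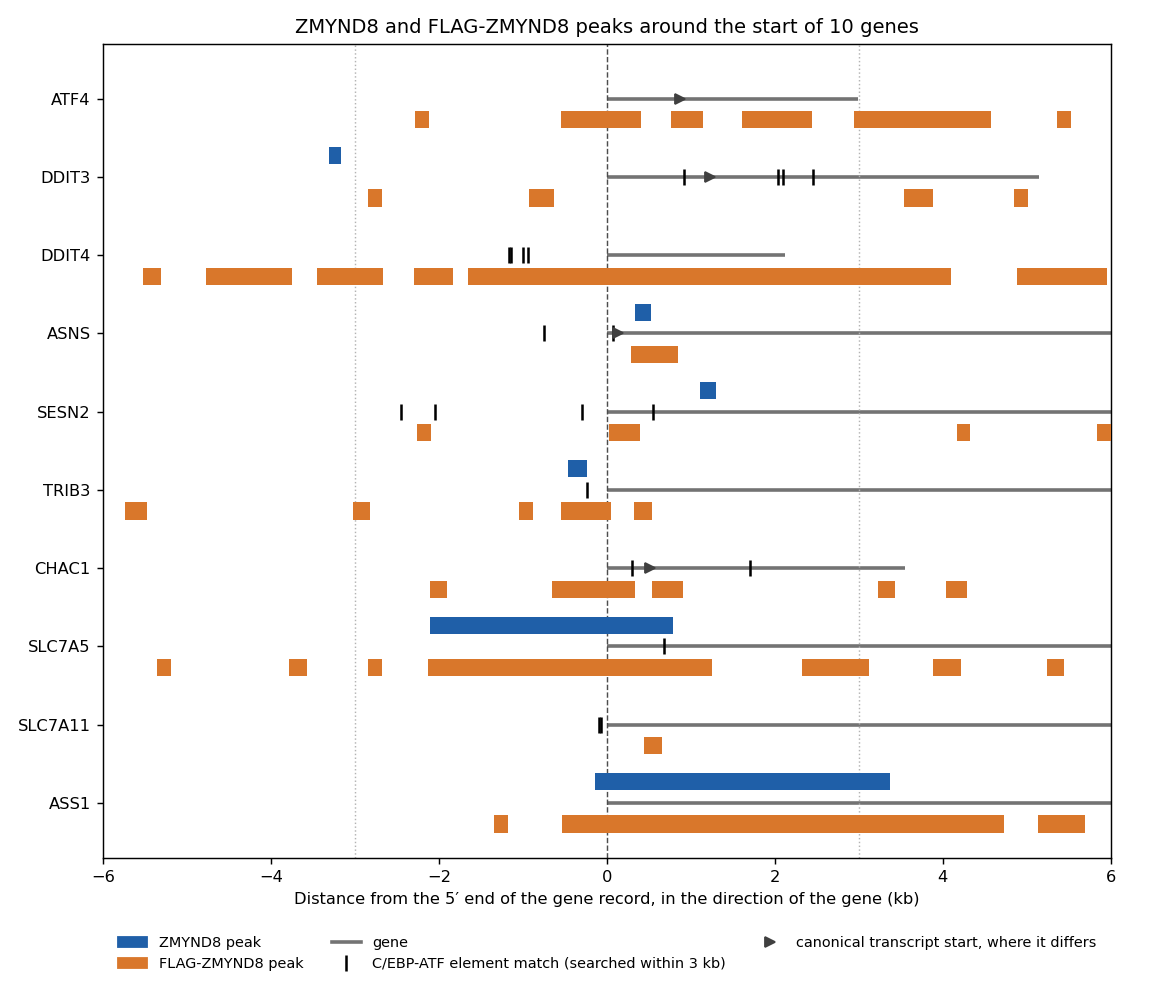
Peaks of both lists by distance from the gene start (kb, in the direction of the gene) for the 10 genes. Blue bars are ZMYND8 peaks, orange bars FLAG-ZMYND8 peaks, grey lines the genes, black ticks CARE matches and arrowheads canonical transcript starts where these differ. Dotted lines mark 3 kb. Each gene has at least 1 orange bar inside them, and DDIT4, SLC7A5 and ASS1 have the longest.

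The 10 TSSs together had 24 FLAG-ZMYND8 peaks and 5 ZMYND8 peaks. Of the FLAG-ZMYND8 peaks, 18 were wider than the minimum, 14 had their midpoint upstream of the start and 10 downstream. The start base itself lay in a FLAG-ZMYND8 peak at ATF4, DDIT4, TRIB3, CHAC1, SLC7A5 and ASS1, 6 genes of 10 against 12.6% of all genes, and in a ZMYND8 peak at SLC7A5 and ASS1, against 8.81%. Since DDIT4, SLC7A5 and ASS1 drew the choice through their wide peaks, which cover the start, nothing is read from these shares. The peak midpoints nearest to the limit of the window on its inner side were those of FLAG-ZMYND8 peaks at TRIB3, 2925 bases upstream, and at DDIT3, 2766 bases upstream. Just beyond it lay a FLAG-ZMYND8 peak of DDIT4, 3064 bases upstream and 790 bp wide, and a ZMYND8 peak of DDIT3, 3238 bases upstream.

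The bases covered by peaks within 3 kb of the start add up the split peaks of a gene but leave out the gaps between them. The difference in spacing between the lists therefore remains, and covered bases too were ranked within a list. FLAG-ZMYND8 peaks covered from 215 bases at SLC7A11 to 5455 at DDIT4, with a median of 1365 over the 10 genes. Over all protein-coding genes the median was 167 bases, and over those with a FLAG-ZMYND8 peak at the TSS it was 505. ZMYND8 peaks covered a median of 94 bases over the 10 genes and 0 over all genes, and from 188 to 3145 bases at the 5 genes that had one. At these 5 the median was 228 bases, beside 258 over all genes with such a peak. The 3 genes whose widths guided the choice hold most of these bases, and the medians are given as descriptions.

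**Figure D2:**
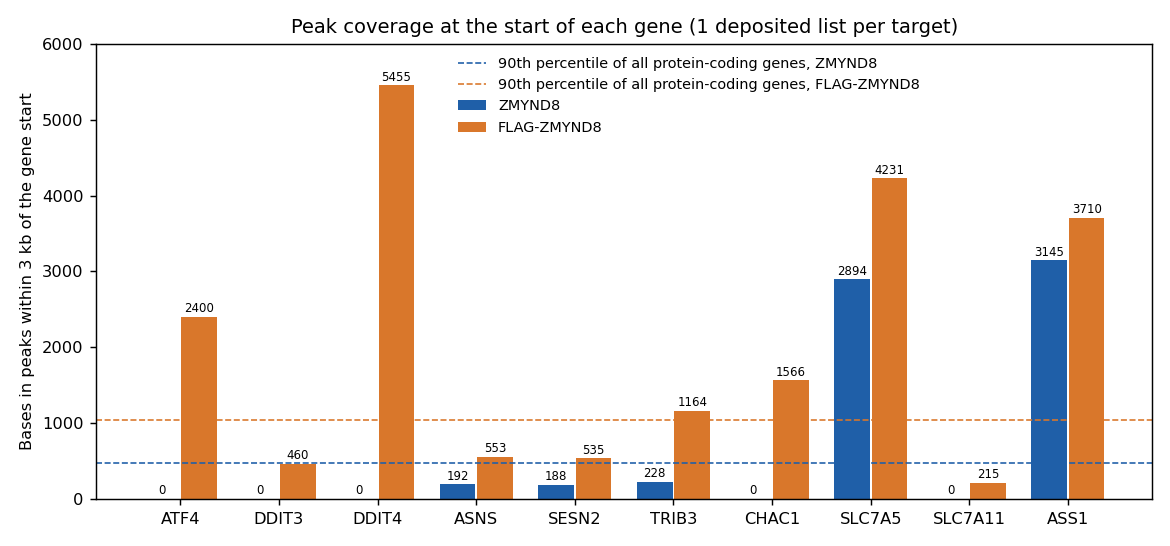
Bases in ZMYND8 peaks (blue) and FLAG-ZMYND8 peaks (orange) within 3 kb of each gene start, 1 value per list. Dashed lines are the 90th percentiles of all protein-coding genes, 474 bases for ZMYND8 and 1036 for FLAG-ZMYND8. DDIT4, SLC7A5, ASS1, ATF4, CHAC1 and TRIB3 exceed the FLAG-ZMYND8 line, and SLC7A5 and ASS1 the ZMYND8 line.

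A peak of at least 1000 bp lay at the TSS in 3.86% of genes for FLAG-ZMYND8 and in 3.23% for ZMYND8. Of the 10 genes, DDIT4, SLC7A5 and ASS1 had such a FLAG-ZMYND8 peak and SLC7A5 and ASS1 such a ZMYND8 peak. Width chose these 3 genes, so nothing is read from that number. The other 7 genes had widest FLAG-ZMYND8 peaks of 215 to 990 bp, against a median of 312 bp over all genes with a peak at the TSS. Of these 7, CHAC1 with 990 bp and ATF4 with 957 bp came first, and DDIT3 with 293 bp and SLC7A11 with 215 bp lay below that median. These widths hold for the start of the gene record. Within 3 kb of the canonical start of ATF4 the widest FLAG-ZMYND8 peak had 1630 bp.

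**Figure D3:**
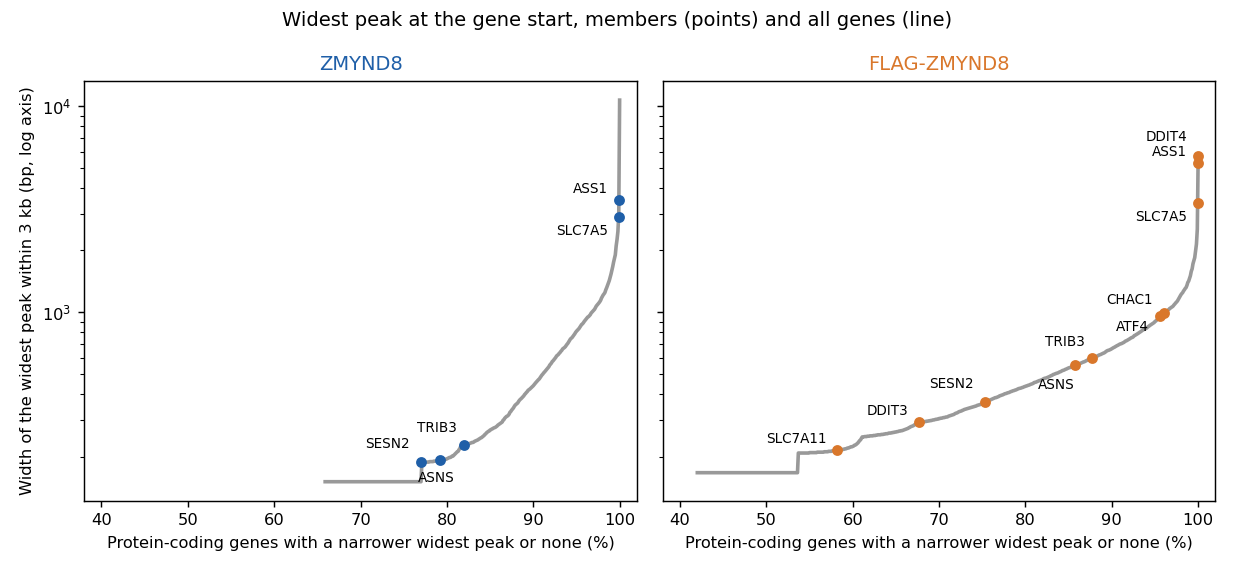
Width of the widest peak at the TSS (bp, log axis) against the percentage of genes that have a narrower one or none, for ZMYND8 (left) and FLAG-ZMYND8 (right). Grey lines are all genes and points the members that have a peak. DDIT4 and ASS1 stand at the top of the FLAG-ZMYND8 line, whereas SLC7A11 and DDIT3 lie in its lower part.

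ATF4, the transcription factor of the response (chr22:39915700-39918688, plus strand), had 4 FLAG-ZMYND8 peaks at the TSS and no ZMYND8 peak. The widest, of 957 bp, ran from 551 bases upstream to 405 downstream of the start and ranked 1295 in its list. One of 167 bp, centred 2204 bases upstream, had its midpoint in the gene MIEF1 and cannot be assigned to either gene by position. A peak of 383 bp covered the canonical transcript start 867 bases downstream, and a peak of 831 bp lay mostly over coding exon sequence. With the edge of a further peak, 2400 bases or 40.0% of the window were covered, which ranked 134 among all genes. The further peak, of 1630 bp and rank 237, lay at the 3′ end of the gene. Joined across gaps under 500 bases, 4 of the peaks formed a domain of 5120 bp that spans the gene and ranked 23 among 55783 domains. With gaps up to 849 bases joined it was 6080 bp and ranked 39. The nearest ZMYND8 peak lay 6610 bases from the canonical start. ATF4 thus had FLAG-ZMYND8 peaks from its 5′ to its 3′ end, with gaps between them, and no ZMYND8 peak.

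DDIT3 encodes CHOP, a C/EBP-family factor that acts with ATF4 (chr12:57910371-57915520, minus strand). The 5′ end of its record lies inside the gene MBD6 on the opposite strand. Both FLAG-ZMYND8 peaks at this TSS, of 293 and 167 bp, fall within MBD6. They lie upstream of DDIT3 and cannot be assigned to either gene by position. FLAG-ZMYND8 peaks of 354 and 167 bp lay farther along the gene. The canonical transcript start, 1223 bases downstream, lies outside MBD6. Within 3 kb of it lay the peaks of 293 and 354 bp, and the nearest FLAG-ZMYND8 base was 1857 bases away. The ZMYND8 list had no peak at the TSS, and its nearest one was the 151 bp peak in MBD6 named above. ENSG00000285133 and MIR616 also start within 3 kb of DDIT3. The covered 460 bases, 7.67% of the window, were below the median of 505 for genes with a FLAG-ZMYND8 peak.

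DDIT4 encodes REDD1, an inhibitor of mTORC1 (chr10:74033678-74035794, plus strand). The widest peak of the FLAG-ZMYND8 list, 5751 bp, ran from 1657 bases upstream to 4093 downstream and so covered the whole gene, 2117 bases long, and all 4 CARE matches printed above. A second peak of 465 bp lay upstream. FLAG-ZMYND8 peaks filled 5455 bases or 90.9% of the window, rank 1 among all genes. The ZMYND8 list had no peak within 3 kb, and its nearest base lay 8667 bases away. With gaps under 500 bases joined, 4 peaks made a domain of 8876 bp, rank 3 among 55783 domains. With gaps up to the 849 bases that the ZMYND8 list keeps open, 7 peaks made a domain of 12202 bp, rank 4 among 51168.

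The neighbourhood of DDIT4 was also dense. Within 50 kb of its start lay 40 FLAG-ZMYND8 peaks, against a median of 4 over all genes and 15 over the 10 members. Another of them was the second widest of its list, 5312 bp, centred 48016 bases downstream, outside annotated protein-coding genes and 33213 bases from the nearest protein-coding TSS, that of DNAJB12. A peak of 2018 bp, rank 101, lay 13197 bases upstream. ZMYND8 peaks numbered 4 in this interval. One of 2256 bp, rank 87, was centred 28979 bases upstream and overlapped 3 FLAG-ZMYND8 peaks over 58.7% of its bases. A ZMYND8 peak of 775 bp lay 18816 bases upstream and shared 71.1% of its bases. The ZMYND8 list was therefore not empty around DDIT4 but had its peaks away from the gene.

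SESN2 encodes Sestrin-2, a leucine sensor that restrains mTORC1 (chr1:28586029-28609002, plus strand). A FLAG-ZMYND8 peak of 368 bp began 23 bases downstream of the start and covered untranslated and coding exon sequence, and one of 167 bp lay 2179 bases upstream. A ZMYND8 peak of 188 bp lay in an intron, centred 1201 bases downstream, with no base in common with FLAG-ZMYND8. In the gene body lay 5 FLAG-ZMYND8 peaks, of which the 4 beyond the TSS window had the minimum width of 167 bp.

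TRIB3 encodes a pseudokinase that is induced by ATF4 and binds it (chr20:343479-378203, plus strand). Its gene record and its canonical transcript start 17925 bases apart, and both starts had peaks of both lists. At the 5′ end of the record lay 4 FLAG-ZMYND8 peaks, the widest 600 bp with rank 3724, and a ZMYND8 peak of 228 bp that lay wholly within it. At the canonical start a FLAG-ZMYND8 peak of 969 bp (chr20:361379-362347), rank 1252, covered the start base and all 3 copies of the printed repeat. A ZMYND8 peak of 238 bp (chr20:361921-362158) lay within that peak, 517 bases from the canonical start, and did not reach the repeats. The gene body held 11 FLAG-ZMYND8 peaks.

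CHAC1 encodes a gamma-glutamylcyclotransferase that degrades glutathione (chr15:41245160-41248710, plus strand). It had 3 FLAG-ZMYND8 peaks at the TSS, of 212, 990 and 364 bp, and no ZMYND8 peak. The peak of 990 bp, rank 1189, covered the 5′ end of the record and ended upstream of the canonical start 509 bases downstream. The printed CARE match lay under this peak. Coverage was 1566 bases or 26.1% of the window, rank 650. Within 50 kb lay 22 FLAG-ZMYND8 peaks and 3 ZMYND8 peaks, and 2 of the latter had DLL4 as the nearest protein-coding gene.

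ASNS, asparagine synthetase (chr7:97480989-97501854, minus strand), had 1 peak of each list. The FLAG-ZMYND8 peak of 553 bp, rank 4358, lay from 289 to 841 bases downstream, mostly over untranslated exon sequence. The ZMYND8 peak of 192 bp, rank 6024, lay wholly inside it. No other peak of either list lay within 50 kb. The processed pseudogene ENSG00000226744 starts within 3 kb of ASNS. ASNS and SLC7A11, with 1 FLAG-ZMYND8 peak each within 50 kb, were the sparsest of the 10 loci.

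ASS1, argininosuccinate synthase of arginine synthesis (chr9:133320348-133376661, plus strand), had wide peaks in both lists. The FLAG-ZMYND8 peak of 5277 bp, rank 3, ran from 542 bases upstream to 4734 downstream, and 4497 of its bases were intronic. Joined with its neighbours it ranked 7 for gaps under 500 bases and 17 for gaps up to 849. The ZMYND8 peak of 3517 bp, rank 19, ran from 144 bases upstream to 3372 downstream and lay wholly inside it. Both reached farther into the gene than away from it, and both covered the printed E-box. Within 3 kb the ZMYND8 peak took 52.4% and FLAG-ZMYND8 peaks 61.8% of the bases, ranks 14 and 17 among all genes. Of the FLAG-ZMYND8 bases there, 84.8% were also in the ZMYND8 peak.

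SLC7A5 encodes LAT1, the importer of leucine and other large neutral amino acids (chr16:87863629-87903113, minus strand). The ZMYND8 peak over its start, 2894 bp and rank 33 in its list, ran from 2106 bases upstream to 787 downstream. The FLAG-ZMYND8 peak, 3380 bp and rank 11 in its list, ran from 2133 upstream to 1246 downstream. The upstream edges thus lay close together. With peaks joined, the FLAG-ZMYND8 rank was 113 for gaps under 500 bases and 81 for gaps up to 849. The ZMYND8 peak held 538 bases of coding and 165 of intronic sequence. Within 3 kb, ZMYND8 covered 2894 and FLAG-ZMYND8 4231 bases, ranks 21 and 6 among all genes, and 68.4% of the FLAG-ZMYND8 bases lay in both lists.

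The body of SLC7A5 held 19 FLAG-ZMYND8 and 5 ZMYND8 peaks, the most of the 10 genes in each list. Among the FLAG-ZMYND8 peaks were 1 of 3245 bp, rank 14, centred 13436 bases downstream and wholly intronic, and 1 of 2147 bp, rank 75, centred 18361 bases downstream. All 5 ZMYND8 peaks in the body had the minimum width of 151 bp and lay in introns, from 8492 to 23628 bases downstream, and 4 of them overlapped a FLAG-ZMYND8 peak. No ZMYND8 peak overlapped the FLAG-ZMYND8 peak of 3245 bp.

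SLC7A11 encodes xCT, which imports cystine in exchange for glutamate (chr4:139085251-139163503, minus strand). It had 1 FLAG-ZMYND8 peak of 215 bp, rank 21436, over a coding exon from 441 to 655 bases downstream. The nearest ZMYND8 peak lay 906178 bases away. The 2 amino acid transporters among the 10 genes thus had 4231 FLAG-ZMYND8 bases at SLC7A5, second to DDIT4, and 215 at SLC7A11, the fewest. Their sequence differed as well, as SLC7A5 had 65.2% GC and 161 CpG sites within 1 kb of the start and SLC7A11 39.3% GC and 26 CpG sites. The medians over all protein-coding genes were 55.0% GC and 90 CpG sites. The part of base composition in the peak coverage was not tested.

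**Figure D4:**
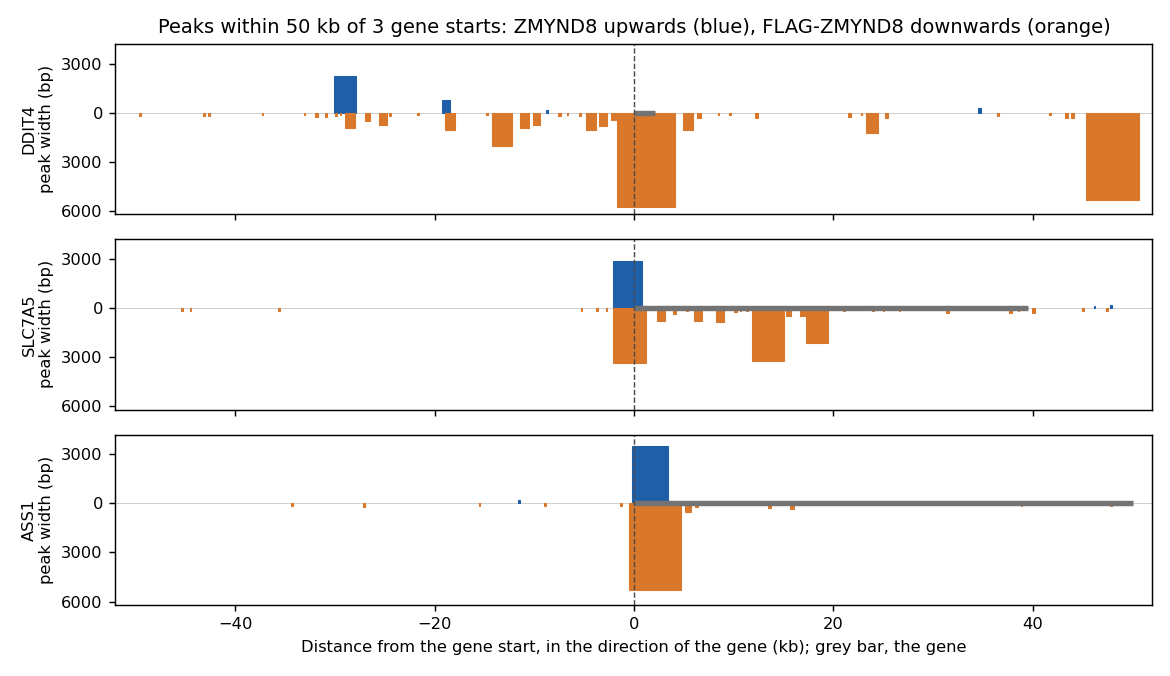
Peaks within 50 kb of the starts of DDIT4, SLC7A5 and ASS1, by distance from the start (kb) and width (bp), ZMYND8 upwards in blue and FLAG-ZMYND8 downwards in orange. Grey bars are the genes. At SLC7A5 and ASS1 a wide blue and a wide orange peak meet at the start, and at DDIT4 the wide orange peak has no blue counterpart while another lies 48 kb downstream.

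Across the 10 loci, a ZMYND8 peak lay in the body of 5 genes, against 37.5%, and a FLAG-ZMYND8 peak in the body of all 10, against 64.8%. The body counts include peaks at the TSS, among them the wide ones at DDIT4 and ASS1. Without the first 3 kb of each gene they were 3 for ZMYND8 and 6 for FLAG-ZMYND8. No share over all genes was computed for that setting. ATF4 and DDIT4, with 2989 and 2117 bases, have no sequence left there. Within 50 kb, 9 genes had a ZMYND8 peak, against 65.7%, and 10 a FLAG-ZMYND8 peak, against 82.9%. The 50 kb windows held 29 ZMYND8 and 172 FLAG-ZMYND8 peaks. In these windows 51.7% of ZMYND8 peaks overlapped the other list, beside 40.0% genome-wide. Of FLAG-ZMYND8 peaks, 9.3% did so, beside 10.7% genome-wide. The genes and windows hold the peaks at DDIT4, SLC7A5 and ASS1 that guided the choice, so nothing is read from the shares in this paragraph.

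The rule did not use the letters of the CARE. A match to TGATGNAA lay within 1 kb of the start in 8 of the 10 genes, against 19.7% of protein-coding genes, and in the 250 bases before to 50 after the start in TRIB3 and SLC7A11, against 2.72%. ATF4 and ASS1 had no match within 3 kb, where 57.7% of genes have one. Several of these genes are known for their CAREs, so the count is not independent of the choice of the pathway. The printed matches of ASNS, CHAC1 and DDIT3 lie 68, 209 and 306 bases upstream of the canonical start.

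Peaks and CARE matches coincided at some of these genes only. FLAG-ZMYND8 peaks covered all 4 matches at DDIT4, the 3 repeats at TRIB3 and another match 235 bases upstream of its gene record, 1 of 2 matches at CHAC1 and the match at SLC7A5. Only the match at SLC7A5, 681 bases downstream of the start, lay in a ZMYND8 peak too. The matches at DDIT4 and SLC7A5 lie under the wide peaks that guided the choice, so nothing is read from their being covered. Around the canonical start of TRIB3, 3 other matches lay outside peaks. At ASNS both matches lay outside peaks, and the one 66 bases downstream of the start of the record was 216 bases from the FLAG-ZMYND8 peak. At SLC7A11 the 2 matches were 510 and 529 bases from the only peak. None of the 4 matches at DDIT3 and none of the 4 at SESN2 lay under a peak. A match is a run of letters and no evidence that ATF4 binds there.

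Other motifs were counted in the same 1 kb windows. The GC box GGGCGG was found at all 10 genes, against 78.9%, the antioxidant response element core TGACNNNGC at 7, against 54.1%, and the TATA box TATAAA at 5, against 52.2%. The E-box CACGTG was found at 4, against 28.7%, and the cAMP response element TGACGTCA at 0, against 3.9%. At ATF4 a TATAAA 30 bases and an E-box 85 bases upstream of the canonical start both lay under the FLAG-ZMYND8 peak of 383 bp.

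The genes whose covered bases around the start were most like those of DDIT4, SLC7A5 and ASS1 were sought among all other protein-coding genes by the Jaccard index, the bases in common over all covered bases with both lists together. For DDIT4 they were HOXB5 with 0.709, EFNA1 with 0.692 and GLI1 with 0.69. HOXB5 and EFNA1 had 0 ZMYND8 bases and GLI1 had 151. For SLC7A5 they were ZMYND8 itself with 0.66, ENSG00000285901 with 0.615 and TGIF2-RAB5IF with 0.606. For ASS1 they were ENO1 with 0.832, HOXC5 with 0.771 and ZFP36L1 with 0.76. None of these genes is in the lists of the pathway.

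The wider pathway was described with 56 further genes in 5 lists. A FLAG-ZMYND8 peak lay at the TSS of 53 of them, 94.6%, and a ZMYND8 peak at that of 28, beside 58.1% and 34.1% of all protein-coding genes. The median number of FLAG-ZMYND8 bases within 3 kb was 687, beside 167 over all genes and 1365 over the 10 genes. The last value includes DDIT4, SLC7A5 and ASS1, which guided the choice through their wide peaks. Nothing is therefore read from the order of these medians. These lists were put together with earlier results of the same data known.

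The counts in each list stand beside the same shares of all protein-coding genes, 34.1% for ZMYND8 and 58.1% for FLAG-ZMYND8. The lists are short, and nothing is read from differences between them. Among the 14 enzymes of amino acid synthesis, 10 had a peak of ZMYND8 and 12 one of FLAG-ZMYND8. The exceptions for both lists were ASL, which follows ASS1 in arginine synthesis, and the mitochondrial folate enzyme MTHFD2. Among the 9 further amino acid transporters, 8 had a FLAG-ZMYND8 peak and 1, SLC38A1, a ZMYND8 peak. Wide FLAG-ZMYND8 peaks lay at SLC38A1 with 2535 bp and rank 36, at the glutamine transporter SLC1A5 with 2311 bp and rank 59, and at SLC43A1, a transporter of large neutral amino acids, with 1762 bp and rank 182. The cationic amino acid transporter SLC7A3 had no peak of either list. SLC3A2, the heavy chain that pairs with both SLC7A5 and SLC7A11, was singled out after its values were seen and had FLAG-ZMYND8 peaks of up to 421 bp and no ZMYND8 peak.

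All 14 genes of the eIF2 kinases and eIF2 control had a FLAG-ZMYND8 peak and 7 a ZMYND8 peak. EIF2AK4, which encodes GCN2, was singled out in the same way and had 2 FLAG-ZMYND8 peaks, covering 459 bases, and no ZMYND8 peak. All 7 further transcription factors had a FLAG-ZMYND8 peak and 3 a ZMYND8 peak. Of the 12 other targets, all had a FLAG-ZMYND8 peak and 7 a ZMYND8 peak. Among them STC2, which encodes the secreted glycoprotein stanniocalcin-2, had the FLAG-ZMYND8 peak of rank 6, 3715 bp, and no ZMYND8 peak, as at DDIT4.

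**Figure D5:**
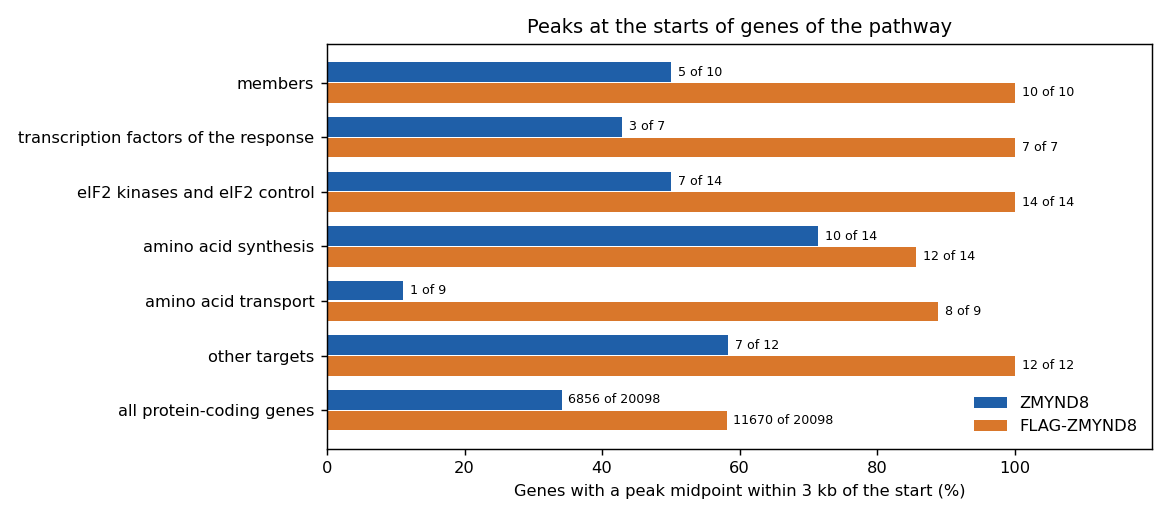
Share of genes with a peak midpoint within 3 kb of the start (%), for the 10 members, the 5 pathway lists and all protein-coding genes, ZMYND8 in blue and FLAG-ZMYND8 in orange, with the numbers of genes beside the bars. The lowest ZMYND8 share is that of the amino acid transporters, 1 of 9, and the highest that of amino acid synthesis, 10 of 14.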

How the data were processed

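The ChIP-seq peak lists for FLAG-ZMYND8 and ZMYND8 in HEK293 were used, and the samples of histone marks and input were not used here. Per the methods and the submitters' processing notes, the authors aligned to hg19 with BWA-MEM (BWA 0.7) and made profiles with HOMER. Peak-calling settings and the way replicates were combined are not given in the sources used here. The authors deposited start and end positions and a score that is 1 in each row and was not used. Lists hold only sites that passed calling, so weaker signal is not represented.

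Peaks were compared with GENCODE release 44 on GRCh37. The TSS was the 5′ end of the gene record. Lists overlapped with at least 1 bp in common. Motifs were searched on both strands in the GRCh37 sequence. Peaks were ranked by width, ties taking the best rank. No statistical test was made, since each target has 1 list. The members, pathway lists and printed windows were chosen with earlier results of these data known.

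All members are named. Other pathway genes are named when a peak at the TSS is among the 300 widest of its list, or when neither list has a peak within 3 kb, with a maximum of 25. The 3 most similar genes are named for DDIT4, SLC7A5 and ASS1, as are genes that start within 3 kb of a member. Alternatives were another window, start site, overlap and joining of peaks. Canonical starts, joining to the ZMYND8 spacing and narrow windows on any base of a peak were added after the data were seen. The placing functions were tested on simulated lists. Python 3.11.15, numpy 2.4.6, pandas 2.3.3, pysam 0.24.0 and matplotlib 3.10.9 were used.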

Additional observations from a re-analysis of the deposited data

How the results depend on the processing

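No paired analysis was possible because each target has 1 list without replicates, and none could be left out. Of 56 combinations of 8 counts over the members and an alternative, 40 came within 1.5 times the value reported and 16 did not. By midpoint within 1 kb of the TSS, 3 members had a ZMYND8 peak, with 3 such peaks, and 12 FLAG-ZMYND8 peaks lay there. By midpoint within 500 bp, 2 members had a ZMYND8 peak (2 peaks) and 5 a FLAG-ZMYND8 peak (6 peaks), and peaks of both lists overlapped at 1. A narrow window on midpoints leaves out wide peaks that cover the start base, such as those of DDIT4 and ASS1. Counting a peak with any base in the window, an alternative chosen after seeing the data, gave 4 members with a ZMYND8 peak, 9 with a FLAG-ZMYND8 peak and 4 with overlapping peaks within 500 bp, and 10 FLAG-ZMYND8 peaks there and 14 within 1 kb. A reciprocal overlap of 50% left 2 members with overlapping peaks. Counting at the start of any annotated transcript raised the FLAG-ZMYND8 peaks to 42, and joining FLAG-ZMYND8 peaks up to the smallest gap of the ZMYND8 list lowered them to 15. Without the first 3 kb, ZMYND8 peaks lay in 3 gene bodies and FLAG-ZMYND8 peaks in 6, with no sequence left at ATF4 and DDIT4. In the 250 bases before to 50 after the start, 2 members had a CARE match. At single members, 90 of 120 counts of peaks at the TSS came within 1.5 times the reported one.

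Width ranks in the FLAG-ZMYND8 list depended on joining and on how peaks were assigned. Joined domains were taken with any base within 3 kb, whereas single peaks were taken by their midpoint, so both changes enter the ranks below. At ATF4 the single peak of 1630 bp, rank 237, already reached into the window without joining. With gaps under 500 bases joined, the rank moved by more than 1.5 times at 6 of 10 members: ATF4 came to 23, DDIT4 to 3, ASS1 to 7, SLC7A5 to 113, TRIB3 to 1229 and ASNS to 8369. With gaps up to 849 bases joined, it also moved at 6, and ATF4 came to 39, DDIT4 to 4, ASS1 to 17, SLC7A5 to 81, CHAC1 to 2685 and ASNS to 10228. Ranks in the ZMYND8 list did not change with gaps under 500 bases joined, since it has no such gap. An absent peak cannot be read as absent binding, because depth and threshold are unknown.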
